A study of Homo sapiens with 4 samples.

Results

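FDCSP and 9 listed neighbours in the secretory calcium-binding phosphoprotein cluster of the long arm of chromosome 4 were followed in KM-H2 cells, a cell line established from Hodgkin lymphoma. The 10 genes were chosen from 19775 genes on the arrays because FDCSP had an unusually large difference after PTPN1 knockdown, and the listed neighbours show whether the rest of its cluster shared that difference. The comparison was between KM-H2 cells treated with small interfering RNA against PTPN1 (2 arrays) and KM-H2 cells given the non-silencing control (2 arrays). Within a group the arrays are technical replicates according to the titles and the design text, and each SD and SE below covers the spread between arrays and not between cultures, and 2 arrays a group limit the precision. Of the 10 genes, 9 had a probe set annotated to that gene alone, and HTN3 was not analysed here.

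Secretory calcium-binding phosphoproteins are often acidic or phosphorylated proteins that are exported from the cell and bind calcium. Their genes arose by local duplication and include the milk caseins, salivary proteins that hold calcium in solution, and proteins of enamel and of the gum attachment. FDCSP lies among them but is known for its secretion by follicular dendritic cells, the stromal cells that display antigen to B cells in lymphoid follicles. The casein genes are textbook targets of prolactin acting through JAK2 and STAT5, and PTPN1 encodes a tyrosine phosphatase that acts on JAK kinases.

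Sequences around the starts of the 3 casein genes are shown because all held the letters of a STAT element. The RefSeq table of assembly GRCh38.p14 held windows of 300 bases (250 before and 50 after a gene's start) for 9 of the 10 genes, all but FDCSP, and 3 of these 9 genes, which were CSN1S1, CSN2 and CSN3, held the palindrome TTCNNNGAA. Of the 11 windows of these 9 genes, 3 held it, beside 7.66% of all 35116 windows in the table. CSN1S1 is shown from chr4:69930818-69931117 (plus strand), CSN2 from chr4:69965679-69965978 (minus strand) and CSN3 from chr4:70238131-70238430 (plus strand), each 5′ to 3′, with the matches in capitals.
CSN1S1: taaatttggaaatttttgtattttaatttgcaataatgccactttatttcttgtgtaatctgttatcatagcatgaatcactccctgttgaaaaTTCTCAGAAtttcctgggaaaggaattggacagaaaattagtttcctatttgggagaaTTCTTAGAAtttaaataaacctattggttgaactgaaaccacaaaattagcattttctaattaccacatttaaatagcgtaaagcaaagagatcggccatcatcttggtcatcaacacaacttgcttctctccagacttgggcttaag
CSN2: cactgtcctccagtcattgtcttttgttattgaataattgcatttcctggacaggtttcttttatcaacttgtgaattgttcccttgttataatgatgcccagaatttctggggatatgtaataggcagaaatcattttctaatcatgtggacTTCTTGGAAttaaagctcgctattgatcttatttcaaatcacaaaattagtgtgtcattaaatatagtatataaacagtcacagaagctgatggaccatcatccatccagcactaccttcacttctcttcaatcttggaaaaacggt
CSN3: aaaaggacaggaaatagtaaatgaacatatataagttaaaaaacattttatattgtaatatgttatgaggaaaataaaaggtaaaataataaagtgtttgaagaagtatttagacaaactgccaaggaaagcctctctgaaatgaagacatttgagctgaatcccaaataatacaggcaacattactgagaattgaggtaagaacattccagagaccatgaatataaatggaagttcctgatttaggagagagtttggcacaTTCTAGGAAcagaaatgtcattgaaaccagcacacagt

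In CSN1S1 the matches ran from 156 to 148 and from 98 to 90 bases before the start, and in CSN2 the single match ran from 97 to 89 bases before it. The match of CSN3 lay after the start, at bases 13 to 21. These are matches of letters and not measured binding. Both strands were searched, and the palindrome reads the same on each. The same palindrome with a further free base in its middle, the spacing preferred by STAT6, was found for CSN1S1 and MUC7. It was in 2 of the 11 windows, beside 6.44% of all windows. The AP-1 pattern TGANTCA was found for CSN1S1, ODAM, HTN1 and STATH (4 of 11 windows, beside 7.71% of all windows). TATAAA was found for CSN2, CSN3 and MUC7 (4 of 11, beside 11.5%), and the NF-kB pattern GGGANTTCC for 0 of the 9 genes (0 of 11, beside 1.85%). None of these matches overlapped one of another pattern. Aligned end to end, the windows of the histatin genes HTN1 and HTN3 were 83.5% identical, those of HTN1 and STATH 79.3%, and those of HTN3 and STATH 71.2%. Those of CSN1S1 and CSN2 were 58.4% identical. All other pairs lay between 37.2% (HTN1 and SMR3B) and 49.7% (CSN1S1 and HTN3).

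PTPN1, the targeted gene, read 7.00 and 7.36 in the knockdown arrays and 8.16 and 8.40 in the non-silencing arrays on its brightest probe set, in log2 expression values made by RMA (a method that corrects background, aligns the arrays' distributions and combines the probes of a probe set). The difference, knockdown minus non-silencing, was -1.10 (SE 0.18), and both knockdown arrays lay below both non-silencing arrays. Its 3 dimmer probe sets differed by 0.01, -0.07 and -0.03. Of the Hodgkin cell markers, listed with earlier results of these data known, 9 of 9 were above the median of all values on every array. Among them, TNFRSF8 (CD30) read 9.32 and 8.33 in the knockdown arrays and 8.82 and 8.16 in the non-silencing arrays. The lowest, CCL22, read from 5.27 to 5.52. Of 7 measured markers of the B cell programme, 4 were above that median on every array. The same held for 11909 of all 19775 genes. Lower quartile, median and upper quartile of all values were 4.09, 5.11 and 7.14.

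FDCSP had far more signal after the knockdown. Its single probe set read 10.83 and 9.84 in the knockdown arrays, against 5.59 and 4.85 in the non-silencing arrays. The groups did not overlap, and the lower knockdown array stood 4.24 above the higher non-silencing array. Group means were 10.33 ± 0.70 in the knockdown arrays and 5.22 ± 0.52 in the non-silencing arrays (SD, n = 2 each), a log2 difference of 5.11 (SE 0.40), or 34.6-fold. The non-silencing values lay on either side of the median of all values, also 5.11, and the fold depends on these modest readings. FDCSP was higher in the arrays numbered 1 than in those numbered 2 in both groups, by 0.99 for knockdown and by 0.74 for non-silencing. The difference was the highest of all 19775 genes, a description only, since FDCSP was selected for it. Without knockdown array 1 it ranked number 2 at 4.61, behind DLK1 at 5.02, and without non-silencing array 1 it ranked number 2 at 5.48, behind DLK1 at 5.76. In bulk RNA, more cells with the transcript and more transcript per cell cannot be told apart.

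**Figure D1:**
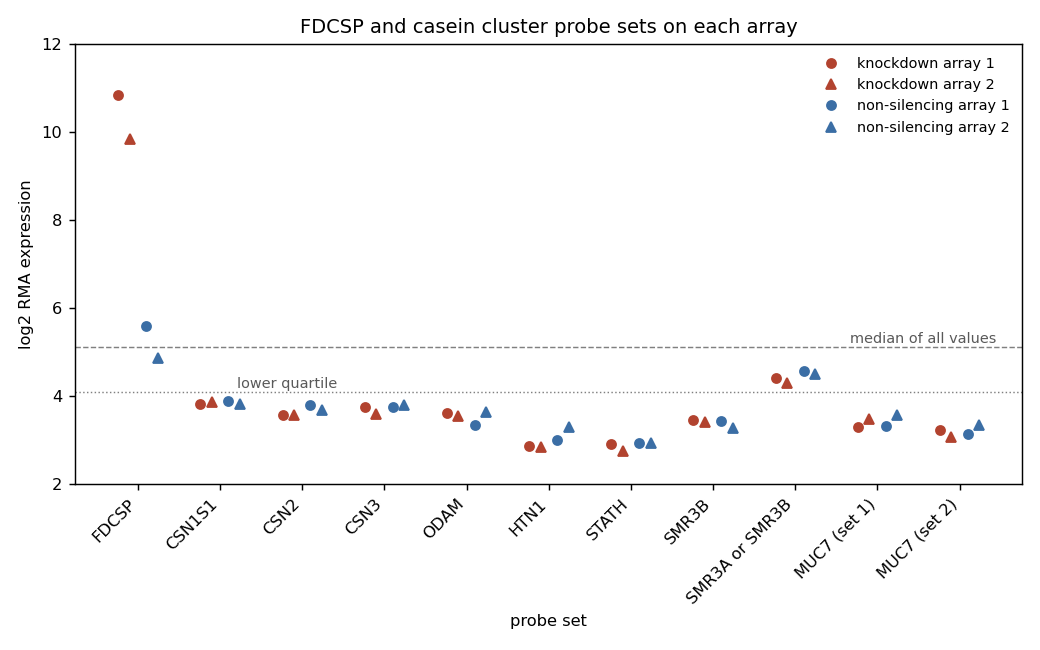
Log2 RMA expression of every probe set of the measured genes, with knockdown arrays in red to the left of non-silencing arrays in blue, circles for arrays numbered 1 and triangles for arrays numbered 2. FDCSP reads 10.83 and 9.84 in knockdown, whereas all 9 single-gene probe sets of its neighbours stay between 2.74 and 3.89 on every array, below the dotted lower quartile.

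The neighbours did not share the large difference. All 9 single-gene probe sets, which belong to 8 genes, read between 2.74 and 3.89 on every array, below the lower quartile of 4.09. Their log2 differences lay between -0.30 and 0.09. Of all 19775 genes, 2463 were below that quartile on every array. Of the 8 genes, 0 were at least 2-fold different with the groups apart, a rule met by 0.485% of all genes. Their median difference was -0.08, beside -0.01 for all genes, with 2 genes above 0 and 6 below. Signal this low is compressed by RMA, so a small change in a barely present transcript would not be detectable here.

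Among the milk proteins, CSN1S1 (alpha-s1-casein) read 3.81 and 3.85 in the knockdown arrays, against 3.89 and 3.82 in the non-silencing arrays. The groups overlapped, and the difference was -0.03 (SE 0.13). CSN2, which encodes beta-casein, read 3.57 and 3.57 in the knockdown arrays and 3.80 and 3.67 in the non-silencing arrays, a difference of -0.16 (SE 0.13) with the knockdown arrays lower. CSN3 encodes kappa-casein, which keeps casein micelles in suspension, and is the next protein-coding gene after FDCSP. It read 3.74 and 3.59 in the knockdown arrays and 3.75 and 3.78 in the non-silencing arrays, a difference of -0.10 (SE 0.13), and the nearest values of the groups were 0.02 apart. The 3 genes with a STAT palindrome in the sequences above lay at the low end of the signal in both groups, as did the other measured neighbours.

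ODAM, on the other side of FDCSP, encodes a protein of the enamel organ and the junction between gum and tooth. It read 3.61 and 3.55 in the knockdown arrays, against 3.34 and 3.63 in the non-silencing arrays, which overlap, with a difference of 0.09 (SE 0.15). FDCSP thus stood between a pair of immediate neighbours whose differences were 0.09 and -0.10.

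Of the salivary genes, HTN1 encodes a histatin, a histidine-rich antimicrobial peptide of saliva. HTN1 read 2.85 and 2.83 in the knockdown arrays and 3.0 and 3.28 in the non-silencing arrays, a difference of -0.30 (SE 0.15). This was the largest absolute difference among the neighbours, with the groups 0.15 apart, and 8.85% of all genes differed by at least as much in either direction. The probe set carries the suffix that Affymetrix gives to sets whose probes can match other transcripts, and HTN3 is a close relative. STATH, which encodes the salivary protein statherin that prevents calcium phosphate from precipitating, read 2.91 and 2.74 in the knockdown arrays, against 2.92 and 2.92 in the non-silencing arrays (difference -0.09, SE 0.13).

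SMR3B, a proline-rich protein of the submandibular gland, read 3.44 and 3.41 in the knockdown arrays and 3.42 and 3.26 in the non-silencing arrays, a difference of 0.09 (SE 0.13) with overlapping groups. A further probe set that matches SMR3A as well as SMR3B read 4.40 and 4.30 in the knockdown arrays and 4.56 and 4.50 in the non-silencing arrays, and cannot be assigned to either gene. MUC7, the small salivary mucin, had 2 probe sets, both with overlapping groups, and they differed by -0.07 (SE 0.16) and -0.10 (SE 0.15).

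Knockdown arrays lay below both non-silencing arrays for 4 of the 8 neighbours (CSN2, CSN3, HTN1 and STATH), a pattern met by 15% of all genes and by 17.9% of the 3060 genes whose mean signal was below the lower quartile. They lay above for 0 of 8, against 12.4% of all genes and 15.3% of the dim ones. The gaps between the groups were 0.10 for CSN2, 0.02 for CSN3, 0.15 for HTN1 and 0.0 after rounding for STATH. With each array centred on its median the count was 3 of 8. Among the 3060 dim genes the median absolute difference was 0.10 and the 95th percentile 0.34, and all 8 neighbours lay within that percentile.

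**Figure D2:**
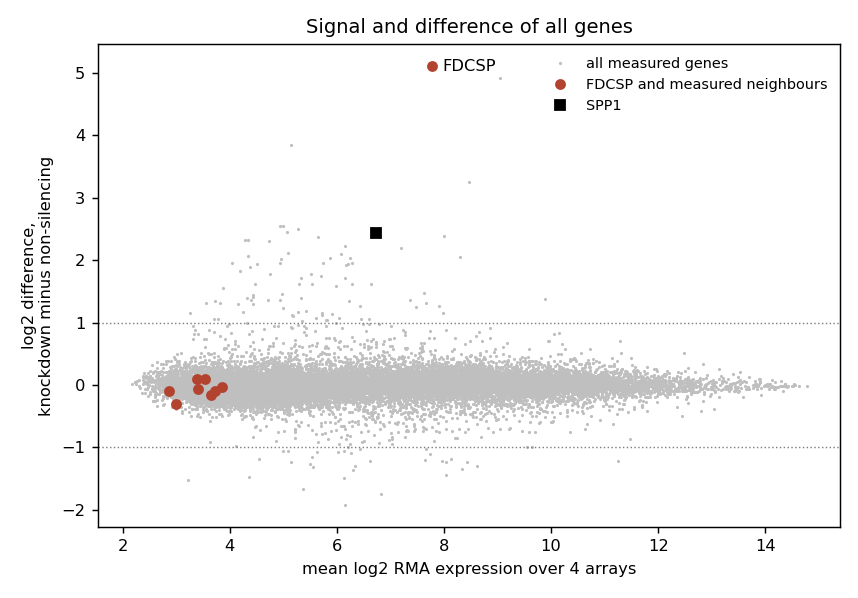
Log2 difference (knockdown minus non-silencing, dotted lines at 2-fold) against mean log2 RMA expression over 4 arrays for each of 19775 genes in grey. FDCSP stands alone at 5.11 among the red members, whose other 8 points lie at the dim end between -0.30 and 0.09, and SPP1 (black square) lies at 2.43.

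Across the wider locus, 0 of the measured flanking genes were at least 2-fold higher with the groups apart, a rule met by 0.399% of all genes. Of 24 protein-coding genes within 12 places of FDCSP in the gene order of GRCh38.p14, 19 were measured. Below the lower quartile on every array were 13 of the 19, beside 2463 of all 19775 genes. The median difference of the 19 was -0.07, beside -0.01 for all genes, and it was 0.028 without knockdown array 1. The listed neighbours make up 8 of the 19, and the median of the 11 others was 0.04. The highest difference among them was that of UGT2B4, an enzyme that conjugates steroids and bile acids, at 0.19 (SE 0.16). UTP3, a ribosome biogenesis factor 11 places away, was bright on all arrays, at 10.78 and 10.74 in the knockdown arrays and 10.56 and 10.71 in the non-silencing arrays (difference 0.13, SE 0.13).

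JCHAIN, 10 places from FDCSP, encodes the chain that joins IgM and IgA into polymers and was the flanking gene with the lowest difference. It read 2.51 and 2.41 in the knockdown arrays, against 5.27 and 2.70 in the non-silencing arrays, a difference of -1.52 (SE 0.82). It was the 1 flanking gene at least 2-fold lower with the groups apart, a rule met by 0.086% of all genes. The high value came from non-silencing array 1 alone, and without that array the difference was -0.24. The same array had the highest value for 4 of 7 measured B cell markers. Among them were MS4A1 (4.40 and 4.41 in knockdown, 5.20 and 4.46 in non-silencing) and POU2AF1 (3.94 and 4.01 in knockdown, 5.18 and 3.73 in non-silencing). For CD22 and CD79B its lead was small (6.12 above 6.07, and 5.20 above 5.13). CD79A, PAX5 and SPIB were highest on other arrays. The share of all genes highest in that array was not computed. Whether the values of JCHAIN and the B cell markers share a source was not tested.

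**Figure D3:**
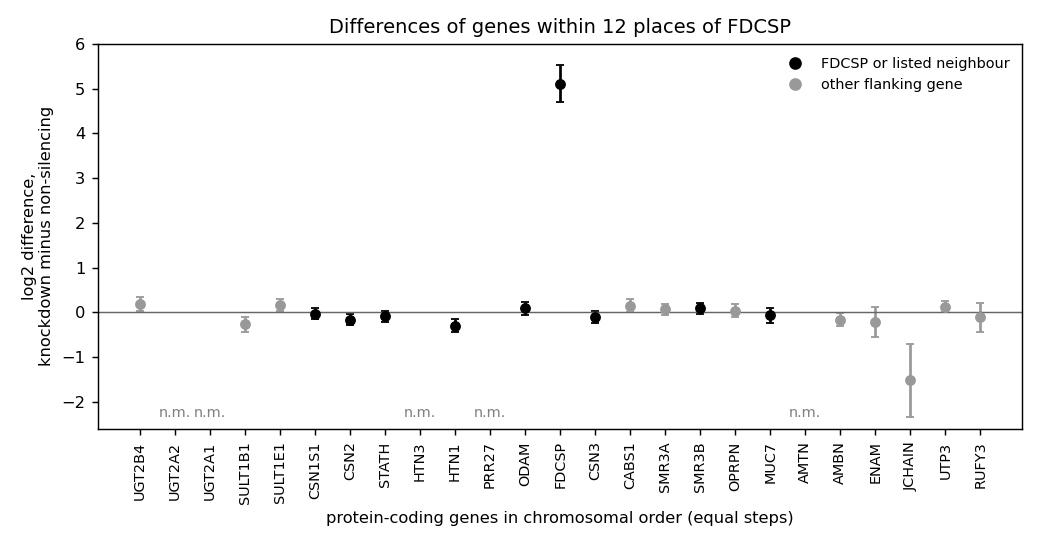
Log2 difference (knockdown minus non-silencing) with its SE for protein-coding genes in chromosomal order at equal steps, n.m. marking genes not measured. FDCSP at 5.11 stands between ODAM at 0.09 and CSN3 at -0.10, and JCHAIN at -1.52 has the widest SE (0.82).

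Among other genes of the secretory calcium-binding phosphoprotein family, SPP1 had the largest difference. Of 15 listed, 12 were measured, with a median difference of 0.05. Below the lower quartile on every array were 4 of the 12, beside 2463 of all 19775 genes. At least 2-fold higher with the groups apart was 1 of the 12, beside 0.399% of all genes. This 1 gene was SPP1, which encodes osteopontin and lies in the more distal bone and dentin cluster of the same chromosome arm. SPP1 read 7.63 and 8.27 in the knockdown arrays and 5.62 and 5.42 in the non-silencing arrays, a difference of 2.43 (SE 0.24), which was 1.29 with the mean of its probe sets and 0.15 on its second brightest. SPARCL1, an extracellular matrix protein related to the family's ancestor, read 8.60 and 8.85 in the knockdown arrays, against 8.16 and 8.37 in the non-silencing arrays, a difference of 0.46 (SE 0.16). The enamel gene ENAM differed by -0.22 (SE 0.33), with overlapping groups.

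Genes that act on casein transcription or on the phosphorylation of secreted proteins were listed as a group. All 14 were measured, with a median difference of 0.04, 7 genes above 0 and 7 below. At least 2-fold different with the groups apart were 0 of the 14, beside 0.485% of all genes. STAT5A read 9.51 and 8.77 in the knockdown arrays and 8.97 and 8.62 in the non-silencing arrays (difference 0.35, SE 0.28), so that its groups overlapped. STAT5B differed by 0.34 (SE 0.22), also with overlap. SOCS2, a feedback inhibitor induced by STAT5, read 11.76 and 11.66 in the knockdown arrays, against 11.35 and 11.50 in the non-silencing arrays (difference 0.29, SE 0.13). In the same list CISH differed by -0.01 (SE 0.21) and JAK2 by 0.10 (SE 0.30), both with overlapping groups. FAM20C, the kinase that phosphorylates caseins, differed by 0.08 (SE 0.13).

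Markers of follicular dendritic cells differed by between -0.25 and 0.43. All 16 were measured, with a median difference of -0.01. At least 2-fold different with the groups apart were 0 of the 16, beside 0.485% of all genes. The largest differences were those of the adhesion molecule gene ICAM1 (0.43, SE 0.18), the Fc receptor gene FCGR2B (-0.25, SE 0.27) and the prion protein gene PRNP (-0.23, SE 0.21). CXCL13, the follicular chemokine, read 3.07 and 2.87 in the knockdown arrays and 2.76 and 2.74 in the non-silencing arrays, below the lower quartile throughout, whereas the complement receptor gene CR2, shared with B cells, read 12.46 and 12.68 in the knockdown arrays and 12.55 and 12.53 in the non-silencing arrays. Of 21 markers of salivary, lacrimal and mammary secretion 18 were measured, with a median difference of -0.09. Of these 18, 0 were at least 2-fold different with the groups apart, beside 0.485% of all genes. The largest difference among the secretion markers was that of ZG16B, a secreted lectin of saliva and tears, at 0.60 (SE 0.44). It read 5.53 and 6.75 in the knockdown arrays and 5.24 and 5.83 in the non-silencing arrays. The tear gene LACRT (-0.24, SE 0.14) and the lactoferrin gene LTF (-0.23, SE 0.18) followed.

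The genes whose 4 values were most like those of FDCSP lay elsewhere in the genome. Likeness was the root mean square distance over the 4 arrays, each gene centred on its own mean, so that size as well as direction counts. FDCSP was chosen for its large difference, so the genes nearest to it by this measure have large differences by construction. DLK1, a Notch family ligand, came first at a distance of 0.54 log2 units, then IL12B, a cytokine subunit, at 0.75 and SERPINA6, the corticosteroid-binding globulin, at 0.93. AFF3, a nuclear protein, and NOL4 followed at 1.38 and 1.43. SERPINA6 read 10.62 and 9.57 in the knockdown arrays and 7.15 and 6.54 in the non-silencing arrays, higher in array 1 of each group as FDCSP was, whereas DLK1 read 11.41 and 11.61 in the knockdown arrays and 7.43 and 5.75 in the non-silencing arrays. With the second brightest probe set DLK1 differed by 0.16 and AFF3 by 0.023, a check that FDCSP, with 1 probe set, does not allow.

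**Figure D4:**
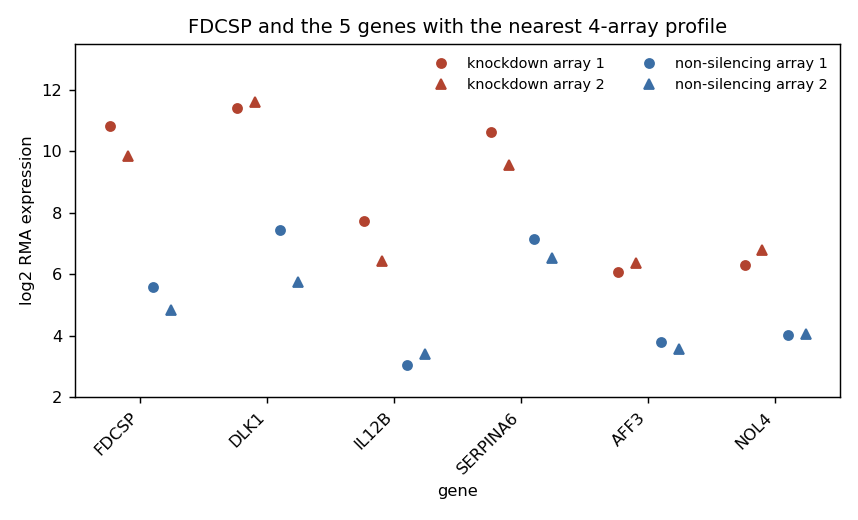
Log2 RMA expression of FDCSP and the 5 genes nearest to it in profile, knockdown arrays in red to the left of non-silencing arrays in blue. In each of these genes both knockdown arrays lie above both non-silencing arrays, which follows from ranking genes by closeness to FDCSP. FDCSP and SERPINA6 are higher in array 1 of each group.

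In the test across all genes, limma called 0 of 19775 (0%) at an adjusted p under 0.05, and 509 had an unadjusted p under 0.05. Like the SEs, these p-values rest on the spread between technical replicate arrays and not between cultures. With a trended, robust variance the adjusted count was 3, and with an unmoderated linear model 0. With the array number fitted as a replicate block it was 72, but no label links that number to a batch. No p is given for the 10 genes, because they were chosen from this same comparison.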

How the data were processed

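Total RNA of KM-H2 cells was extracted on columns and amplified in a 2-cycle protocol to biotinylated cRNA, per the labels' protocols, a step that can favour 3′ ends. Per the submitters' processing notes, RMA gave the deposited values, which are on a log2 scale. The software version behind it is not given in the sources used here. Arrays were grouped by title. Values were used without further normalization. Of 54675 probe sets, controls (62) included, 41097 had 1 gene symbol, 1801 several and 11777 none in the platform annotation, with symbols taken from RefSeq GRCh38.p14. A gene was represented by its brightest probe set by mean, and all probe sets of the 10 genes are given. Knockdown minus non-silencing was fitted in limma 3.58.1 (R 4.3.3) with lmFit and eBayes over all genes, Benjamini-Hochberg adjusted at 0.05, two-sided, and over 54613 probe sets for the SEs of the 10 genes. The fit was tested on simulated data. Members, lists and motifs were chosen with earlier results of these data known. Genes named from a list were those at least 2-fold different with the groups apart and up to 3 with the largest absolute difference. CXCL13, CR2, FAM20C, UTP3, JAK2, CISH, TNFRSF8, CCL22 and the B cell markers were named after their values were seen. Planned protein features were not analysed here. Alternatives were other normalizations, probe set choices, a filter on dim genes, variance models, a replicate block and leaving out each array. Differences within an array number were added after seeing the data.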

Additional observations from a re-analysis of the deposited data

How the results depend on the processing

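FDCSP differed by 4.61 to 5.61 when each array was left out in turn, by 5.10 to 5.13 under quantile normalization and array centring, and by 5.24 and 4.99 within the arrays numbered 1 and 2. Its rank was 1 to 2 without each array, and 2 within the arrays numbered 2. The 8 neighbours had 0 genes at least 2-fold apart under every alternative that kept them, and a median from -0.096 to -0.037 without each array. The filter on genes at or above the median signal removed all 8. The flanking median ranged from -0.095 to 0.028 without each array, and the cause was not tested. The count of genes at least 2-fold higher with groups apart was 79, and 51 with the mean of probe sets, 45 among brighter genes (fewer genes tested) and 91 to 122 without each array, where fewer arrays must be apart. The limma count of calls was 3 with a trended, robust variance and 0 to 1 without each array. With the replicate block it was 72, and the FDCSP difference stayed 5.11. Deviations of same-numbered arrays correlated at 0.648 across genes, but no label links a number to a batch. Dim signal limits what can be seen for the neighbours.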
